A study of Mus musculus with 6 samples.

Results

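Interferon-stimulated genes were followed in the bone marrow of mice in which the homeobox gene CDX2 was switched on in blood-forming cells. The 38 genes were taken by symbol as known targets of type I interferon. All 38 were found among the 39179 gene identifiers of the count files, and all 38 passed the filter on low counts that left 15980 genes to test. The 3 MxCDX2 mice (RsCDX2::Mx1Cre) carried the RsCDX2 knockin, which holds human CDX2 behind a stop sequence that Cre can remove, together with the Mx1Cre transgene, in which the interferon-responsive promoter of Mx1 drives Cre in blood cells and in other cells that sense interferon. The 3 controls were littermates, 1 with RsCDX2 alone, 1 with Mx1Cre alone and 1 wild type, so no control genotype had a replicate. The mice were adults of 3 months at treatment (2 to 3 months in the results of the paper). All 6 mice, controls included, had 3 intraperitoneal injections of poly(I:C) at 10 µg/g, and RNA of the whole marrow was prepared 6 weeks later. No uninjected mouse was analysed here, so a lasting trace of the injections, equal or not in the 2 groups, could not be measured.

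Poly(I:C) is a synthetic double-stranded RNA that cells sense as they sense a virus, and they answer it by releasing type I interferon. Interferon binds the IFNAR1 and IFNAR2 receptor chains, the kinases JAK1 and TYK2 phosphorylate STAT proteins, and a complex that holds STAT2 and IRF9 switches on interferon-stimulated genes. The products block steps of viral growth. OAS proteins and the RNase they activate degrade RNA, IFIT proteins bind foreign RNA, MX and GBP proteins are large GTPases that assemble on invaders, and ISG15 is a ubiquitin-like protein that is attached to other proteins. In marrow the same genes are also expressed at a resting level that differs between cell types, and blood stem cells are known to respond to interferon.

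The complex that holds STAT2 and IRF9 binds a DNA element whose core repeats GAAA. Promoters of 29 of the 38 genes were found in the RefSeq table (build GRCm38.p6, 250 bases before to 50 bases after each start). The core was searched as GAAA, any 2 bases and GAAA again, or on the other strand as TTTC, any 2 bases and TTTC, and it was matched in 18 of the 29 genes (62.1%), against 3.99% of the 27025 genes with a promoter in the table. The windows below are from the genes of the 38 that passed the thresholds and had a promoter in the table (Isg15, Rsad2, Gbp3 and Slfn5), from Gbp2, the neighbour of Gbp3, which did not pass, and from genes of the OAS and IFIT families. Capitals mark the matched cores, which overlap where several were found, and each window is written in the direction of its gene.
Isg15, chr4:156200867-156200904, minus strand: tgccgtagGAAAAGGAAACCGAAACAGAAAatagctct
Rsad2, chr12:26456555-26456580, minus strand: ggtccaacTTTCATTTTCagaaaaca
Gbp3, chr3:142559991-142560022, plus strand: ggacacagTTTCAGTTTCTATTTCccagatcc
Gbp2, chr3:142620596-142620621, plus strand: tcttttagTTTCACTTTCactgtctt
Slfn5, chr11:82951939-82951964, plus strand: ttcaaagtGAAAAAGAAAaaaaaaaa
Oas1a, chr5:120907522-120907553, minus strand: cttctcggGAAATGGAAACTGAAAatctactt
Ifit1, chr19:34640796-34640821, plus strand: agtctcagTTTCAGTTTCtcactgct
Ifit3, chr19:34583399-34583424, plus strand: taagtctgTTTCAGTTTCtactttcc
Isg15 and Rsad2, which fell in MxCDX2 mice, and Gbp3 and Slfn5, which rose, all held the core. In Isg15 it was matched 3 times in a row, at positions -78 to -57 from the start. In Gbp3 the match ran from -45 to -30, and in Rsad2 from -120 to -111. The match of Slfn5 adjoins a run of A. Its promoter entry begins at 82951852, inside the gene, which starts at 82951349. The window of Oas1g was the same as that of Oas1a base for base, and that of Ifit3b the same as that of Ifit3. Among genes in which all MxCDX2 mice lay above all controls, 6 of the 9 with a promoter in the table held the core. The count was 3 of 3 where all MxCDX2 mice lay below, and 9 of 17 where the groups overlapped. The shorter element bound by STAT dimers (TTC, any 3 bases, GAA, which reads the same on both strands) was matched in 6 of the 29 genes (20.7%), against 9.55% of all genes with a promoter. A match is a run of letters and does not show that a factor was bound.

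The reads counted on genes numbered between 38646101 and 49899650 per mouse, so for most of the 38 genes the spread between mice limits the precision. Reads on mouse Cdx2, where reads of human CDX2 could also be counted, were 4, 0 and 0 in the RsCDX2, Mx1Cre and wild-type controls and 152, 155 and 183 in MxCDX2 mice 1, 2 and 3. The wild-type control stood apart from the other 2 controls on the second principal component, which held 15.9% of the variance. The summed level of 4 megakaryocyte and platelet markers was 9.83 times higher in it than in the mean of the other controls, and the sums of T cell, stroma and plasmacytoid dendritic cell markers were 2.19, 2.41 and 1.91 times higher. Its sums of B cell, neutrophil and monocyte markers were lower, at 0.46, 0.70 and 0.84 times that mean. Each of the 38 genes that passed the thresholds is therefore also given without this mouse. The makeup of the marrow differed between the groups. All 8 erythroid markers were lower past the thresholds in MxCDX2 mice (summed normalized counts of 807355 to 889907 in controls and 21777 to 95328 in MxCDX2 mice). Of 8 monocyte markers, 6 were higher (83244 to 107544 against 374321 to 422640), and of 9 neutrophil markers, 7 were lower (1946240 to 3021120 against 803700 to 1113855). Of 6 markers of plasmacytoid dendritic cells, which make much of the type I interferon in an infection, 4 were lower, among them the surface lectin gene Siglech (log2 fold change -2.20). Siglech had 3541, 2449 and 9160 normalized counts in the RsCDX2, Mx1Cre and wild-type controls, and it passed in 3 of 6 fits with a mouse left out. In the same list Tcf4 went the other way, with overlapping groups (log2 fold change 0.82, edgeR adjusted p = 0.098). No marker of the 10 lists was at 0 in any mouse. From counts of bulk marrow alone, fewer cells of a type and less RNA per cell cannot be told apart. By flow cytometry of MxCDX2 marrow, the paper reports a strong loss of erythroid cells and more monocytes, macrophages and immature neutrophils. It describes the marrow as leukemic, with many monoblasts. The marker sums did not separate immature from mature neutrophils, so the lower neutrophil markers do not show a loss of all neutrophils. The part of these marker shifts in the results on interferon-stimulated genes was not tested.

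**Figure D1:**
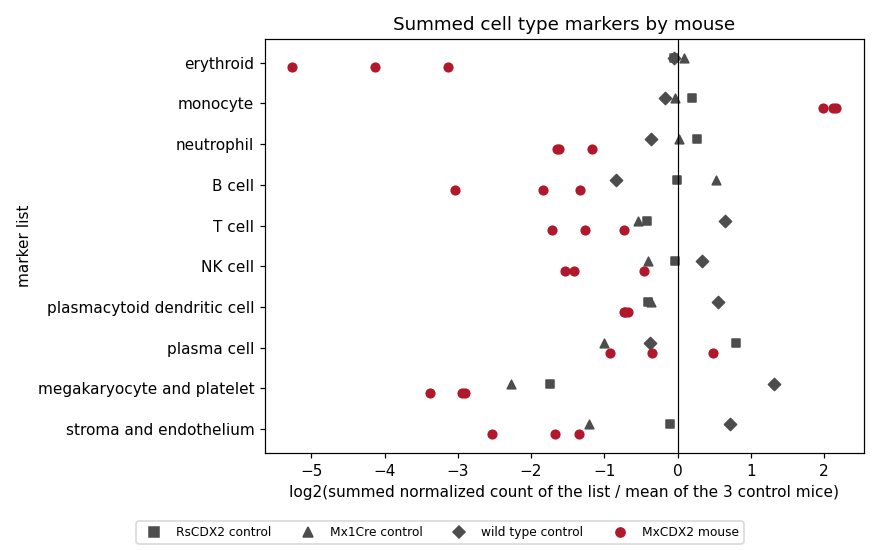
Summed normalized counts of 10 cell type marker lists in each mouse, as the log2 ratio to the mean of the 3 control mice (x axis); grey symbols are controls by genotype and red circles MxCDX2 mice. The 3 MxCDX2 mice lie far left of the controls for erythroid markers and far right for monocyte markers, and the wild-type control lies right of the other 2 controls for megakaryocyte and platelet markers.

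The comparison of MxCDX2 with control mice addressed whether CDX2 expression altered the interferon-stimulated genes. They did not move together. Of the 4 GTPase genes 3 rose, as did the nucleic acid sensor gene Zbp1 and Slfn5, Isg15 and Rsad2 fell, and the 10 listed OAS and IFIT genes overlapped between the groups. At thresholds of 1 for the absolute log2 fold change and 0.05 for the adjusted p-value (edgeR's quasi-likelihood test, adjusted over all 15980 genes), 7 of the 38 genes passed, or 18.4%, against 13.6% of all genes. Of these, 5 were higher (Mx1, Mx2, Gbp3, Zbp1 and Slfn5), or 13.2% of the 38, against a background of 4.59% of all genes. The other 2 were lower (Isg15 and Rsad2), against 9.03%. With both directions pooled, the share that passed was thus close to that of all genes, while the share that was higher exceeded it. The log2 fold change was positive in 24 genes and negative in 14, with a median of 0.40, while that of all genes tested was 0.0021. All 3 MxCDX2 mice lay above all 3 controls in 14 genes (21.4% of all genes did) and below them in 3 (20.7% of all genes did), and the groups overlapped in 21. Groups without overlap were thus found in 17 of the 38, and in 42.1% of all genes. The smallest two-sided p that an exact permutation test allows with 3 mice a group is 0.10.

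**Figure D2:**
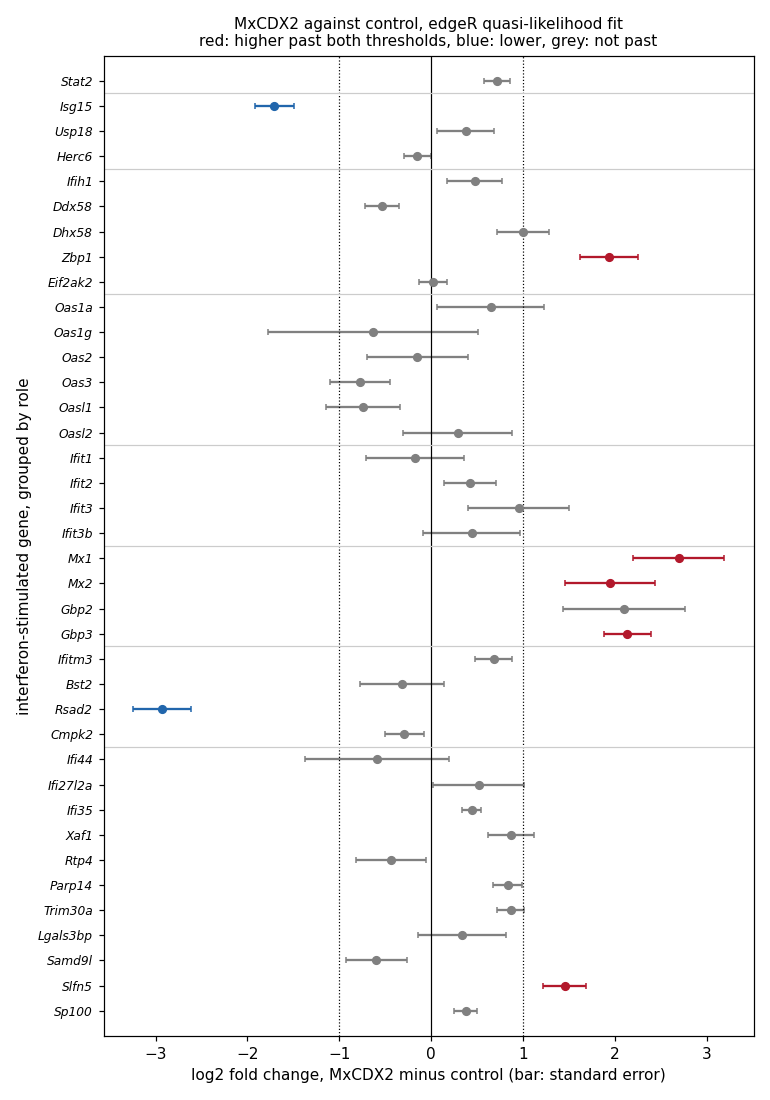
Log2 fold change between MxCDX2 and control mice for each of the 38 genes (x axis; point, estimate; bar, standard error of the edgeR fit), ordered by role; dotted lines mark 1 and -1. Red points are the 5 genes higher and blue points the 2 genes lower past both thresholds, and the grey points of the OAS and IFIT genes lie on both sides of 0.

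The GTPase genes formed the group with the largest share of calls, 3 of 4, against 13.6% of all genes. These 4 genes are 2 pairs of neighbours, and the roles were set with earlier results of these data known, so the share is a description. Mx1 and Mx2 encode dynamin-like GTPases that block viruses in the nucleus and the cytoplasm, and the promoter of Mx1 is the one that drives Cre in the Mx1Cre transgene. In this and the following paragraphs, control values are in the order RsCDX2, Mx1Cre, wild type, and MxCDX2 values in the order of mice 1, 2 and 3. Mx1 (chromosome 16, 97447035 to 97462907, minus strand, GRCm38) had 243, 579.9 and 491 normalized counts in controls and 1576, 4638 and 2303 in MxCDX2 mice. The lowest MxCDX2 mouse was well above the highest control. That control was the Mx1Cre mouse, which carries the transgene, as all 3 MxCDX2 mice do. The means differed 6.48-fold (log2 fold change 2.69, standard error 0.49, edgeR adjusted p = 0.0119). Mx1 passed whichever mouse was left out, with a log2 fold change of 2.80 without the wild-type control. Reads from the transgene, if it gives any that align to Mx1, are not told apart from those of the gene in these counts.

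Mx2, 72400 bases from Mx1, had 65.2, 159.9 and 169 normalized counts in controls and 318, 795 and 410.0 in MxCDX2 mice. The order of the mice was close to that of Mx1, with MxCDX2 mouse 2 highest and the RsCDX2 control lowest for both genes. The log2 fold change of Mx2 was 1.95 (standard error 0.49, edgeR adjusted p = 0.0336), and it passed in 2 of 6 fits with a mouse left out, among them that without the wild-type control (2.19, adjusted p = 0.043). The fits without the RsCDX2 control, the Mx1Cre control, MxCDX2 mouse 2 and MxCDX2 mouse 3 gave adjusted p-values of 0.0674, 0.067, 0.0922 and 0.0771. Reads on Mx1 were 2.91 to 3.73 times those on Mx2 in the controls and 4.96 to 5.84 times in the MxCDX2 mice, so the ratio did not overlap either.

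Gbp2 and Gbp3 encode guanylate-binding proteins, which coat the vacuoles of bacteria and parasites, and answer interferon gamma as well as type I interferon. Gbp3 (chromosome 3, 142560026 to 142573209, plus strand) had 726, 825 and 1004 normalized counts in controls and 5146, 2880.2 and 3176.5 in MxCDX2 mice. Even the lowest MxCDX2 mouse was far above the controls. For Gbp3 the log2 fold change was 2.13 (standard error 0.26, edgeR adjusted p = 0.0032), the smallest p-value among the genes that rose, and it ranged from 1.83 to 2.29 when 1 mouse was left out (2.28 without the wild-type control). Gbp2, its neighbour on the chromosome, had 497, 531 and 1226 normalized counts in controls and 6416, 1760.5 and 1494 in MxCDX2 mice. The groups did not overlap, but the wild-type control was close to MxCDX2 mice 2 and 3, and MxCDX2 mouse 1 was far above the rest. With a log2 fold change of 2.10, a standard error of 0.66 and an edgeR adjusted p of 0.0651, Gbp2 did not pass. Gbp2 passed with DESeq2 (adjusted p = 0.00244) and in edgeR without the wild-type control (2.66, adjusted p = 0.0449), and over all alternatives its adjusted p ranged from 0.00244 to 0.161. Without MxCDX2 mouse 1 its log2 fold change was 1.12.

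**Figure D3:**
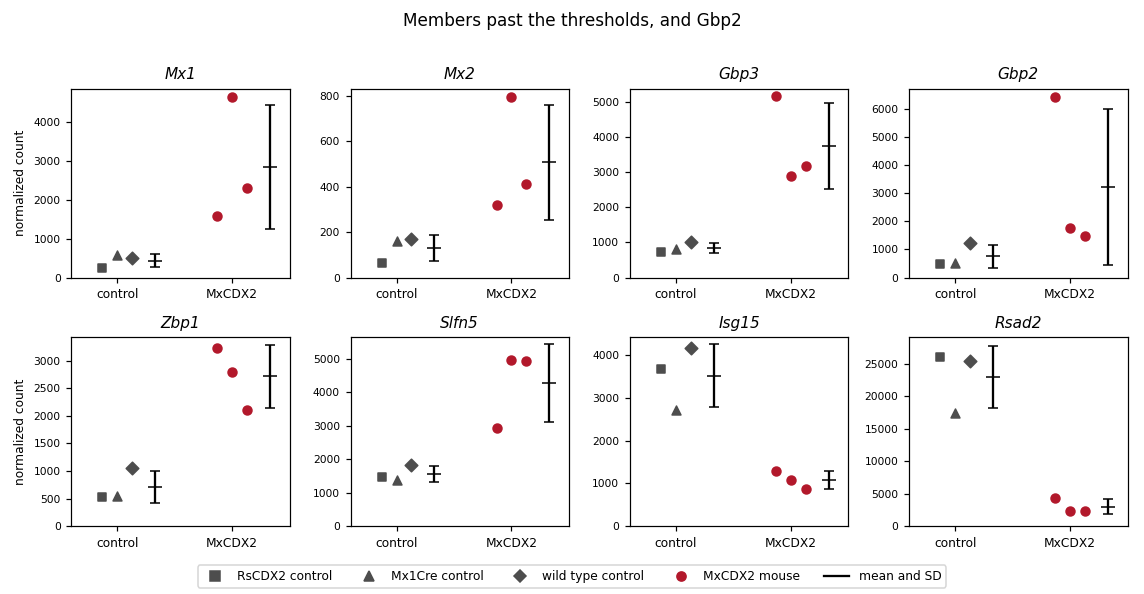
Normalized counts (y axis, starting at 0) of the 7 genes past both thresholds and of Gbp2, which passed the fold threshold alone, by group (x axis); grey symbols are single control mice by genotype, red circles single MxCDX2 mice in the order 1 to 3, and bars the mean and SD of 3 mice. In each panel all MxCDX2 mice lie on one side of all controls, and Gbp2 has 1 MxCDX2 mouse at 6416 against 1494 and 1760.5 in the others.

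Among the 5 nucleic acid sensors, Zbp1 alone passed. ZBP1 recognises left-handed double-stranded RNA and DNA and starts inflammatory cell death. Zbp1 (chromosome 2, 173206612 to 173218923, minus strand) had 532, 543 and 1054 normalized counts in controls and 3239, 2807 and 2113 in MxCDX2 mice. All MxCDX2 mice were at least 2 times as high as the wild-type control and further above the other 2 controls. The log2 fold change was 1.94 (standard error 0.32, edgeR adjusted p = 0.0081) and 2.36 without the wild-type control, and Zbp1 passed whichever mouse was left out.

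The cytoplasmic RNA sensors of the RIG-I family went different ways. Dhx58, which encodes the regulatory member LGP2, had 836, 889.7 and 1172 normalized counts in controls and 1229, 2584 and 1964 in MxCDX2 mice (log2 fold change 0.995, standard error 0.28, edgeR adjusted p = 0.0494). Its groups did not overlap, but the fold change was just under the threshold. Ddx58, which encodes RIG-I itself, was lower in every MxCDX2 mouse (1596 to 2453) than in any control (2598 to 2976), with a log2 fold change of -0.54 that did not pass (edgeR adjusted p = 0.083). Ifih1, which encodes MDA5, the sensor of long double-stranded RNA such as poly(I:C), overlapped between groups, with 937 to 1804 normalized counts in controls and 1475 to 2314 in MxCDX2 mice. Eif2ak2, which encodes the RNA-dependent kinase PKR, had nearly the same mean in both groups, 2479 ± 245 (SD, n = 3) in controls and 2511 ± 404 (SD, n = 3) in MxCDX2 mice.

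Slfn5, a member of the Schlafen family of interferon-induced growth regulators, was the only gene of the remaining 11 effectors to pass. Slfn5 (chromosome 11, 82951349 to 82964840, plus strand) had 1482, 1387 and 1832 normalized counts in controls and 2945, 4968 and 4947 in MxCDX2 mice. The MxCDX2 mice were all higher, mice 2 and 3 alike and mouse 1 between them and the controls. The log2 fold change was 1.45 (standard error 0.23, edgeR adjusted p = 0.0073), and Slfn5 passed whichever mouse was left out (1.60 without the wild-type control). An antisense gene, Slfn5os, overlaps it, and genes on the other strand also overlap Usp18, Herc6, Dhx58, Eif2ak2, Oas2, Oasl1, Gbp2, Ifi35, Rtp4, Trim30a and Sp100. The strand setting of the counting is not given in the sources used here, so reads of such pairs may not be told apart.

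Of the 2 genes that fell, Isg15 encodes the ubiquitin-like modifier. Isg15 (chromosome 4, 156199424 to 156200818, minus strand) had 3682, 2713 and 4155 normalized counts in controls and 1292, 1071 and 863 in MxCDX2 mice. Every MxCDX2 mouse had less than the lowest control by a wide margin, and the means differed 3.27-fold. The log2 fold change was -1.71 (standard error 0.21, edgeR adjusted p = 0.0036) and -1.55 without the wild-type control. The other genes of the ISG15 pathway did not follow it. Usp18, which encodes the protease that removes ISG15 and also dampens the receptor, had 551 to 1151 normalized counts in controls and 822 to 1379 in MxCDX2 mice (log2 fold change 0.38, edgeR adjusted p = 0.437). Herc6, which encodes the ligase that attaches ISG15 in mice, had 1398 to 1502 in controls and 1165 to 1565 in MxCDX2 mice (log2 fold change -0.15, edgeR adjusted p = 0.511).

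Rsad2 had the largest difference of all 38 genes. It encodes viperin, a radical enzyme that converts CTP into a nucleotide that stops viral RNA synthesis. Rsad2 (chromosome 12, 26442746 to 26456452, minus strand) had 26031.5, 17397 and 25471 normalized counts in controls and 4372, 2294 and 2379 in MxCDX2 mice. The highest MxCDX2 mouse was far under the lowest control. The means differed 7.62-fold (log2 fold change -2.93, standard error 0.31, edgeR adjusted p = 0.0024). Rsad2 passed whichever mouse was left out, with log2 fold changes from -3.29 to -2.76 (-2.83 without the wild-type control).

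The gene next to Rsad2 did not fall with it. Cmpk2 encodes a mitochondrial nucleotide kinase, lies 12751 bases away on the opposite strand and is commonly induced together with Rsad2. Cmpk2 had 2661, 3646 and 2439.7 normalized counts in controls and 1979.9, 2964 and 2201 in MxCDX2 mice. The groups overlapped, and the log2 fold change was -0.29 (standard error 0.21, edgeR adjusted p = 0.372). Reads on Rsad2 were 9.78, 4.77 and 10.4 times those on Cmpk2 in controls and 2.21, 0.774 and 1.08 times in MxCDX2 mice, so that in mouse 2 Cmpk2 had more reads than Rsad2. Rsad2 shared no stretch of 50 bases with another gene.

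Smaller rises were found in genes that passed on the adjusted p-value alone. With this looser rule 12 of the 38 genes passed, 10 higher and 2 lower, against 21.7% of all genes (9.91% higher and 11.8% lower). Stat2, the signalling factor that answers type I but not type II interferon, had 3312, 3819 and 3895 normalized counts in controls and 5835, 7074 and 5153 in MxCDX2 mice. The groups did not overlap, and the log2 fold change was 0.71 (standard error 0.14, edgeR adjusted p = 0.0159). Parp14, which encodes an ADP-ribosyltransferase (0.83, adjusted p = 0.0127), Trim30a, which encodes an inhibitor of NF-kB signalling (0.86, adjusted p = 0.0084), and Ifi35, which encodes a partner of NMI (0.44, adjusted p = 0.0269), were the others besides Dhx58, Mx1, Mx2, Gbp3, Zbp1 and Slfn5. In Ifi35 the mice of each group were close together, with 1179.7 to 1273 in controls and 1618 to 1687 in MxCDX2 mice. Besides Gbp2 and Ddx58, 3 genes had no overlap between groups and adjusted p-values above 0.05. They were Ifitm3, which encodes a membrane protein that blocks viral entry (0.68, adjusted p = 0.0552), Xaf1, which encodes an antagonist of the apoptosis inhibitor XIAP (0.87, adjusted p = 0.0502), and Sp100, a component of nuclear bodies (0.37, adjusted p = 0.0847).

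**Figure D4:**
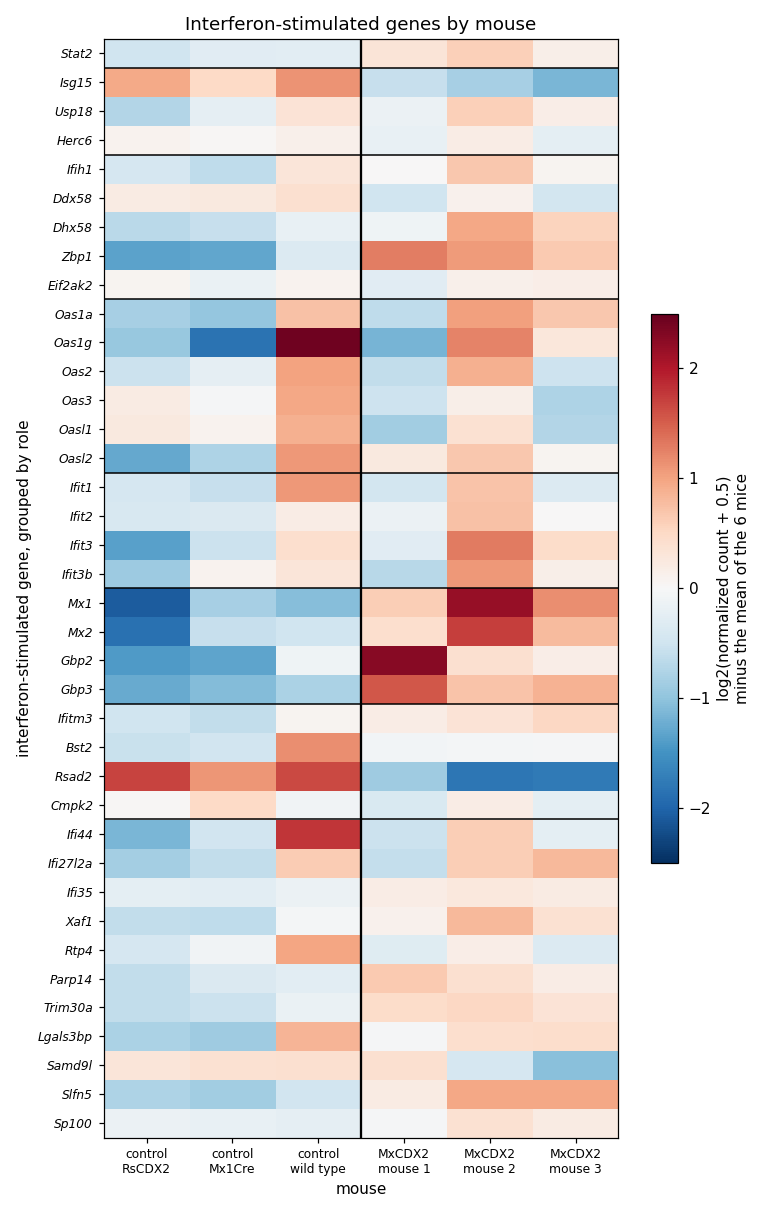
Level of each of the 38 genes (rows, grouped by role) in each of the 6 mice (columns), as log2(normalized count + 0.5) minus the mean of the 6 mice; red is above and blue below that mean. The wild-type control and MxCDX2 mouse 2 are red over most OAS and IFIT genes, while Isg15 and Rsad2 are red in the 3 controls and blue in the 3 MxCDX2 mice.

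OAS and IFIT genes are among those most used to score an interferon response. None of the 6 OAS genes and none of the 4 IFIT genes among the 38 passed, and in all 10 the groups overlapped. Over all genes tested, 13.6% passed, and the groups overlapped in 9256 of 15980. A list of 10 genes is too short to set a count of 0 calls apart from that share. At an unadjusted p below 0.05 edgeR counted 0 of the 10, and with DESeq2 0 of the 10 passed both thresholds. The median log2 fold change was -0.39 in these OAS genes (range -0.78 for Oas3 to 0.65 for Oas1a) and 0.43 in these IFIT genes (range -0.18 for Ifit1 to 0.95 for Ifit3). The controls themselves differed widely. Oas1a and Oas1g, copies of the gene of the RNA-sensing enzyme OAS1, had 455, 416 and 1348 and 35.8, 18.9 and 379 normalized counts in the 3 controls, and Ifit1, which encodes a protein that binds RNA lacking the methylated cap, had 419, 379 and 1199.8. In each case the wild-type control was far above the other 2, and in Ifit1 and Oas1g above every MxCDX2 mouse (407 to 919.9 and 30.7 to 166). Oas1a and Oas1g share 57.6% and 45.7% of their windows of 50 bases with another gene, and Ifit3 and Ifit3b 51.2% and 45.0%. The counting tallied 0 reads as aligned at several places in every mouse, so reads from the shared windows may be missing from these counts.

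The wild-type control had the highest level of the 3 controls in 34 of the 38 genes (89.5%), against 41.2% of all genes tested. It was more than 2-fold above both other controls in 11 genes, or 28.9%, against 8.80% of all genes. These were Oas1a, Oas1g, Oas2, Oasl2, Ifit1, Gbp2, Bst2, Ifi44, Ifi27l2a, Rtp4 and Lgals3bp. Bst2, which encodes tetherin, a protein that holds budding virus at the cell surface and is also a surface marker of plasmacytoid dendritic cells, had 2336, 2475 and 7639 normalized counts in controls and 3282, 3333 and 3378 in MxCDX2 mice. The MxCDX2 mice were nearly identical to each other and lay between the wild type and the other controls. Lgals3bp, which encodes a secreted galectin ligand, had 3172, 2977 and 9929 in controls and 5396, 7378 and 7505 in MxCDX2 mice, the same order. Ifi44, the gene with the lowest level per length, had 43.4, 69.5 and 334 in controls and 66.7, 149 and 81.8 in MxCDX2 mice. In 13 of the 38 genes (34.2%, against 23.7% of all genes) the wild-type control was above all 5 other mice.

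**Figure D5:**
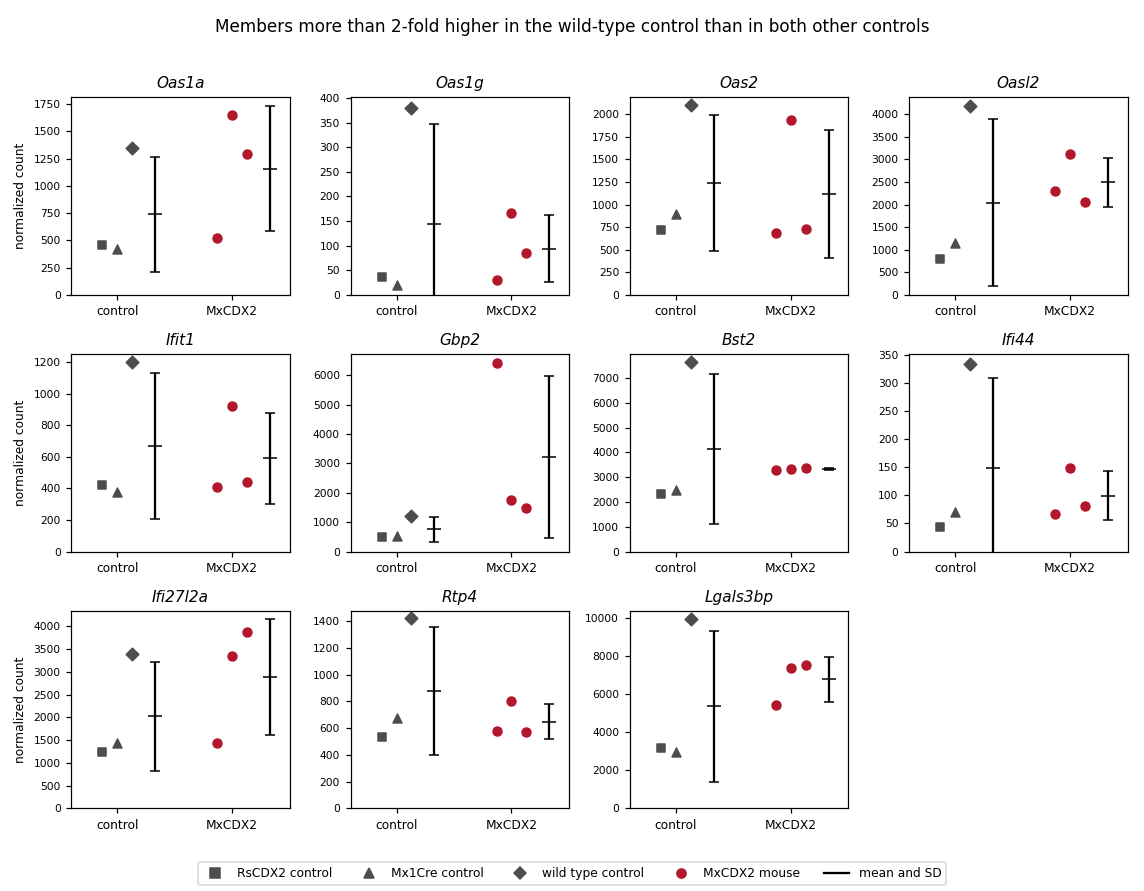
Normalized counts (y axis, starting at 0) of the 11 genes that were more than 2-fold higher in the wild-type control than in both other controls, by group (x axis); symbols are single mice as labelled, and bars are the mean and SD of 3 mice, with bars that would go under 0 ending there. The grey diamond of the wild-type mouse stands far above the square and the triangle in every panel, and all 3 red MxCDX2 circles lie above the diamond in Gbp2 alone.

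The counts of calls depended on this mouse. Without it, 13 of the 38 genes passed both thresholds (34.2%), against 14.9% of all genes in that fit. Of the 13, 11 were higher (28.9%, against 5.71% of all genes) and 2 lower (9.16% of all genes were lower). The 6 genes added were Dhx58, Gbp2, Trim30a, Xaf1, Lgals3bp and Oasl2, all of them higher in MxCDX2 mice. Oasl2, an OAS-like gene that holds ubiquitin-like domains, had 803 and 1146 normalized counts in the RsCDX2 and Mx1Cre controls, 4172 in the wild type and 2309, 3108 and 2057 in MxCDX2 mice. The log2 fold change of Oasl2 was 0.29 with the wild-type control and 1.37 without it (edgeR adjusted p = 0.0149). The 7 genes that passed with all 6 mice were among the 13. The median log2 fold change of the 38 genes was 0.80 in this fit, and 30 of them had a positive value. All 3 MxCDX2 mice lay above both the RsCDX2 and the Mx1Cre control in 23 of the 38 genes (60.5%), against 29.4% of all genes. The wild-type mouse was the highest control in 34 of the 38 genes, against 41.2% of all genes. Leaving it out thus favours higher calls among the 38 more than among all genes. The shares of all genes are therefore no even yardstick here. With 1 mouse of each control genotype, the genotype and the single mouse cannot be told apart. Megakaryocyte, T cell, stroma and plasmacytoid dendritic cell markers were also high in the wild-type mouse, and B cell, neutrophil and monocyte markers were lower. The part of these differences was not tested.

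The MxCDX2 mice also differed among themselves. Mouse 2 was the highest of the 3 in 26 of the 38 genes (68.4%, against 34.1% of all genes), and mouse 1 the lowest in 25 (65.8%, against 33.1%). Taken as the median over the 38 genes of the log2 level relative to the mean of the 6 mice, the values were -0.58, -0.47 and 0.31 in the controls and -0.13, 0.60 and 0.16 in MxCDX2 mice 1, 2 and 3. The wild-type control thus ranked above MxCDX2 mice 1 and 3. Mouse 1 was highest for a different set of 7 genes, namely Gbp2, Gbp3, Zbp1, Parp14, Samd9l, Isg15 and Rsad2. The spread was widest for Oas1g, with 5.39 times as many normalized counts in the highest as in the lowest MxCDX2 mouse, and for Gbp2 (4.30 times), and narrowest for Bst2 (1.03 times) and Ifi35 (1.04 times). Samd9l, which encodes a growth-restraining protein of myeloid cells, had 9752, 5555 and 3580.4 in MxCDX2 mice against 9099.7 to 9777 in controls, so only mouse 1 lay within the control range.

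Levels were compared between genes as CPM per kilobase of exon, where CPM scales the counts of a mouse to a common library size. Ifitm3 had the highest level in both groups, 313 ± 82.7 (SD, n = 3) in controls and 502 ± 58.8 (SD, n = 3) in MxCDX2 mice. In controls Rsad2 (116 ± 24.5), Isg15 (102 ± 21.4), Bst2 (101 ± 73.6) and Ifi27l2a (96.0 ± 56.9, SD, n = 3 each) followed, and these 4 did not differ beyond their spread. In MxCDX2 mice Rsad2 had a level of 15.3 ± 5.97 (SD, n = 3), rank 16 of the 38, and Isg15 one of 31.3 ± 6.26 (SD, n = 3), rank 7. Mx1 went from rank 34 (2.54 ± 1.02, SD, n = 3) to rank 15 (16.5 ± 9.28, SD, n = 3), and Gbp3 from rank 24 to rank 10. Ifi44 had the lowest level in both groups, 0.534 and 0.356 in the means.

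The remaining genes of the list had values in both groups that overlapped. They were Ifi27l2a, which encodes a small membrane protein (log2 fold change 0.52), and Rtp4, which encodes a chaperone of receptors (-0.44), besides Oas2 (-0.15), Oasl1 (-0.74), Ifit2 (0.42) and Ifit3b (0.44), with edgeR adjusted p-values between 0.231 and 0.875.

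Transcripts of the listed interferon genes were scarce, while genes of the receptors and of most sensors and adaptors were well expressed. The sensor gene Tlr3 was an exception, with 37 to 227 reads per mouse. Of 10 interferon genes, 9 had too few reads to be tested, among them Ifnb1, the gene of interferon beta, with 0 to 5 reads per mouse. At this depth no difference in transcripts of the listed type I interferon genes was detectable. Other type I interferon genes were not analysed here. The type I receptor genes were expressed in all mice. Ifnar2 had 2961, 3628 and 3424 normalized counts in controls and 6372, 6462 and 5935 in MxCDX2 mice, with no overlap (log2 fold change 0.91, standard error 0.11, edgeR adjusted p = 0.003), just under the fold threshold. Ifnar1 overlapped between groups (0.27, edgeR adjusted p = 0.178). Tyk2, the kinase bound to IFNAR1, rose (1.04, edgeR adjusted p = 0.003), and Ifnlr1, the receptor gene of type III interferon, fell (-2.03, edgeR adjusted p = 0.0049). Irf9, the partner of STAT2, had a log2 fold change of 0.36 (edgeR adjusted p = 0.057), and Irf7, the factor that amplifies interferon production, one of -0.04 (edgeR adjusted p = 0.946).

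Of the 9 sensors and adaptors upstream of interferon, 3 rose and none fell past the thresholds (4.59% and 9.03% of all genes). They were Tmem173, which encodes STING (log2 fold change 1.45, edgeR adjusted p = 0.0051), Cgas, which encodes the enzyme that makes the messenger of STING (1.08, edgeR adjusted p = 0.0065), and Tlr9, which encodes an endosomal DNA sensor (1.04, edgeR adjusted p = 0.0251). Tlr9 had adjusted p-values of 0.0674, 0.0709 and 0.0792 without the RsCDX2 control, MxCDX2 mouse 2 and MxCDX2 mouse 3. Cgas had a log2 fold change of 0.99 without the wild-type control, and the kinase gene Tyk2 one of 0.94 without MxCDX2 mouse 2. None of the 4 negative regulators passed in edgeR or in DESeq2, and 1 of the 4 had an unadjusted edgeR p below 0.05, higher in MxCDX2 mice. None of the 9 sensors and adaptors was lower in DESeq2 or at that unadjusted p. Lists of 4 and 9 genes are too short to set a count of 0 apart from the share of all genes. Over all 64 tested genes of the pathway outside the 38, 7 were higher and 5 lower (18.8%, against 13.6% of all genes), with a median log2 fold change of 0.36.

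Of 35 other interferon-induced genes tested, 3 were higher and 4 lower (7 in all, against 13.6% of all genes, with 4.59% higher and 9.03% lower). Isg20, which encodes an RNA exonuclease, had 12222, 10438 and 10930.2 normalized counts in controls and 2036, 912 and 1170.0 in MxCDX2 mice. This was the largest fall (log2 fold change -3.03, standard error 0.31, edgeR adjusted p = 0.0021), close in size to that of Rsad2, and it passed whichever mouse was left out. The other falls were those of Ifit1bl2, a relative of Ifit1 (-2.75, edgeR adjusted p = 0.0054), Ifitm1, a relative of Ifitm3 (-1.65, edgeR adjusted p = 0.0308), and Oas1c, a relative of Oas1a (-1.40, edgeR adjusted p = 0.0253). The rises were those of Ifi211 and Ifi204, DNA-binding proteins of the same cluster (1.79 and 1.37, edgeR adjusted p = 0.0033 and 0.0053), and of Gbp7 (1.37, edgeR adjusted p = 0.0304), a relative of Gbp3. When 1 mouse was left out, Gbp7 missed the threshold in 4 of 6 fits, those without the RsCDX2 control (adjusted p = 0.08), the Mx1Cre control (0.0716), MxCDX2 mouse 1 (0.066) and MxCDX2 mouse 3 (0.0724). Ifitm1 missed it without MxCDX2 mouse 1, 2 or 3 (0.0707, 0.0967 and 0.111), and Oas1c without the RsCDX2 control, MxCDX2 mouse 1 or MxCDX2 mouse 3 (0.0543, 0.067 and 0.0993).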

How the data were processed

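RNA-seq libraries (stranded mRNA) were made from whole bone marrow of 6 mice. The authors aligned reads to GRCm38 with STAR (version 2.5), counted them with HTSeq (version 0.6.1) and deposited raw counts per gene for each mouse, without normalization. Tallies of reads on no gene or on several genes, 12.2% to 17.1% of the total, were left out of library sizes. Groups came from the sample labels, and nothing beyond separate mice replicates a group.

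Symbols, positions and exon lengths came from GENCODE M21 (GRCm38), and promoters from RefSeq (GRCm38.p6). R 4.3.3 with edgeR 4.0.16 was used: TMM scaling, filterByExpr at its defaults, then the quasi-likelihood test of MxCDX2 against control with no covariate and Benjamini-Hochberg adjustment over every gene tested. A call needed an adjusted p below 0.05 and a log2 fold change beyond 1 or -1. Standard errors came from the F statistic. Normalized counts are the counts after scaling each mouse to the mean of the TMM-adjusted library sizes. The fit was tested on simulated data.

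The 38 genes, their roles, the pathway lists and the marker lists were chosen with earlier results of these data known, so their counts are descriptions read against all genes. Values per mouse are given for genes that passed both thresholds, or whose groups did not overlap with group means more than 1 apart in log2, and for a few others. Of the other pathway genes, those past the thresholds and Irf7, Irf9, Ifnar1 and Ifnar2 were named by rule, and 1 further gene of the rule is not reported here. Ifnb1 and Tlr3 were named after their counts were seen, and Siglech and Tcf4 as listed markers. Gbp5 and Gbp6 were not analysed here. Promoters of Mx1, Mx2, Rtp4, Usp18, Oas2, Zbp1, Parp14, Dhx58 and Ifi27l2a were not analysed here. Windows of 50 bases of each gene's transcripts were looked up in the transcripts of other genes.

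Alternatives were DESeq2 1.42.0 (tool and, separately, its size factors in edgeR), total counts only, TMM without the 10 most abundant genes, no filter beyond 1 count in any mouse, a minimum of 10 counts in every mouse, the adjusted p alone, a test of fold changes against 1 in log2, and each mouse left out in turn. Python 3.11.15 (pandas 2.3.3, matplotlib 3.10.9) made the other tables and the plots.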

Additional observations from a re-analysis of the deposited data

How the results depend on the processing

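No paired analysis was possible because only the MxCDX2 mice carry numbers in their labels. The counts of 7 genes past the thresholds (5 higher, 2 lower) and of 2177 among all genes changed by more than 1.5 times in 3 cases. With the adjusted p alone, 12 genes passed (10 higher), and 3471 of all genes. In a test of fold changes against 1 in log2, 3 passed (1 higher), and 611 of all genes. Leaving out 1 mouse in turn gave between 6 and 13 genes (4 to 11 higher, 2 to 3 lower) and between 1205 and 2406 of all genes, and the highest count of the 38 came without the wild-type control, the lowest of all genes without MxCDX2 mouse 3. DESeq2 gave 8 of the 38 and 2678 of all genes. With total counts only, the median of all genes was 0.118 in log2, and 41.5% of calls were higher, against 33.7% with TMM; with the adjusted p alone 45.6% were.

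Single genes changed sign only when a mouse was left out. Lowest and highest log2 fold changes in those fits were -0.076 and 1.37 for Oasl2, -0.061 and 0.15 for Eif2ak2, -1.003 and 0.83 for Ifi44, -0.80 and 0.50 for Oas2, -0.68 and 0.12 for Rtp4, -0.65 and 0.59 for Ifit1, -0.59 and 0.49 for Bst2, -1.32 and 1.81 for Oas1g, and -0.13 and 0.78 for Ifit3b. Mx1, Gbp3, Zbp1, Slfn5, Isg15 and Rsad2 passed in all 6 of these fits. The cause of these changes was not tested. For weakly expressed genes such as Oas1g and Ifi44, and for the interferon genes, the number of reads also limits what can be seen.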

Other observations

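MxCDX2 mouse 1 stood out in opposite ways in different interferon-induced genes. It was the lowest MxCDX2 mouse in 25 of the 38 interferon-stimulated genes but the highest in 21 of the 35 other interferon-induced genes tested (60.0%, against 37.1% of all genes). The genes below were chosen after their values were seen. Iigp1, which encodes an immunity-related GTPase that attacks parasite vacuoles, had 128, 167 and 934 normalized counts in the RsCDX2, Mx1Cre and wild-type controls and 4992, 520.2 and 420.5 in MxCDX2 mice 1, 2 and 3. Irf1, a transcription factor gene induced strongly by interferon gamma, had 4109.6, 4681 and 5394 in controls and 9361, 4599 and 4322 in MxCDX2 mice. Gbp2 and the peptide transporter gene Tap1 (15177, 9530.2 and 9522 in MxCDX2 mice) had the same order of mice, with mouse 1 first. Few reads fell on Ifng itself, 36, 22 and 10 in MxCDX2 mice 1, 2 and 3 (38.1, 21.6 and 8.71 after scaling). Controls ranged from 5.11 to 21.9 after scaling, and the groups overlapped (log2 fold change 0.67, edgeR adjusted p = 0.535). The order of the MxCDX2 mice was again the same, but these genes were picked with their values known. Whether interferon gamma had a part in the pattern of mouse 1 was not tested.

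The wild-type control was high for several of the same genes. Igtp, a further immunity-related GTPase gene, had 1669, 1311 and 7205 normalized counts in controls and 4434, 1559.6 and 1428 in MxCDX2 mice, so that the wild-type control and MxCDX2 mouse 1 were above the other 4 mice. Over the 35 genes, the wild-type mouse was the highest control in 26 (74.3%, against 41.2% of all genes).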
